A study of Homo sapiens with 12 samples.

Results

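The genes described here carry out the uptake and use of uridine and the making of pyrimidine nucleotides. They were taken by gene name, as 10 of the 58735 genes in the count and FPKM tables, and all 10 had enough counts to be tested, among 17729 genes tested in all. They are SLC29A1, a carrier of nucleosides across the cell membrane, the kinases UCK1, UCK2, UCKL1 and CMPK1, the catabolic enzyme UPP1, the enzymes CAD, DHODH and UMPS of synthesis from small precursors, and TYMS, which makes thymidylate. RNA-Seq of polyadenylated RNA was used to ask whether the conditions of a cysteine-profiling method for RNA-binding proteins disturb the transcriptome. The cells were HEK293T, an established human embryonic kidney line of wild-type genotype in every group, and 12 libraries fell into 4 groups of 3. DMSO cells were given the vehicle. CEP cells were given AHL-Pu-1, a clickable electrophilic purine that reacts with cysteines, at 25 µM for 1 h, although the treatment text on the labels prints 25 mM. In the 4SU group the agent was 4-thiouridine, 100 µM for 16 h, and the CEP+4SU group had both agents. The labels attach the same text, UV crosslinking included, to all libraries, so it cannot be told from it whether cells without 4SU were irradiated. The replicates are described as independent, and the study says of its experiments in general that they were repeated on other days, without tying these libraries to cultures or days. The p-values set differences between groups against the spread between these libraries.

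Uridine enters most cells through equilibrative carriers, of which the product of SLC29A1 is the most widely used, and the uridine-cytidine kinases then trap it as UMP, which CMPK1 carries on to UDP. A uridine analog such as 4-thiouridine has to pass the same steps before an RNA polymerase can place it in RNA opposite adenine. Cells also make UMP from simple precursors, by CAD, DHODH in the mitochondrion and UMPS in turn, and a uridine phosphorylase, UPP1, breaks uridine down to uracil.

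Because 4-thiouridine takes the place of uridine, stretches of 120 coding bases from the middle of the coding sequence are shown for 4 of the genes, with T in capitals, which stands for each U of the mRNA. CMPK1 and UCKL1 were picked as the genes with the lowest and the highest GC content of the 10, CAD for the only unadjusted p under 0.05, and UCK2 for the smallest spread. The sequences are from GENCODE 29 principal transcripts on GRCh38, 5′ to 3′ along the mRNA.
CMPK1, chr1:47368580-47373038, plus strand, coding bases 283 to 402 in 2 exons: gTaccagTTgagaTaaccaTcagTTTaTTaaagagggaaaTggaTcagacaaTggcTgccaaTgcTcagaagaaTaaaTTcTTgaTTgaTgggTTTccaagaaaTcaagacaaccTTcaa
UCK2, chr1:165891297-165896283, plus strand, coding bases 331 to 450 in 2 exons: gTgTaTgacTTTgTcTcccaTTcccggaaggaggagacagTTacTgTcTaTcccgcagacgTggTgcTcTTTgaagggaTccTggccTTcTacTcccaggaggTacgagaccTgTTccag
CAD, chr2:27233686-27233805, plus strand, coding bases 3277 to 3396 in 1 exon: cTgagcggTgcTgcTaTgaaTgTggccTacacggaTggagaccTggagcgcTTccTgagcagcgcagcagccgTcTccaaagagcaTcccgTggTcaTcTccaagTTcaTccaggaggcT
UCKL1, chr20:63944400-63944605, minus strand, coding bases 739 to 858 in 2 exons: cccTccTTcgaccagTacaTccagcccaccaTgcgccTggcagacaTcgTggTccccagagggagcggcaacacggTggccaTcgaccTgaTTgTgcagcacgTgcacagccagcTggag
These windows held 30, 32, 24 and 18 U of 120 bases for CMPK1, UCK2, CAD and UCKL1. Over the whole principal transcript the share of U was 33.0% for CMPK1, 19.9% for UCK2, 21.7% for CAD and 18.0% for UCKL1, and the share of G and C was 37.8%, 55.3%, 57.7% and 61.7%.

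The cells carried RNA of genes known from this line. NEFL, NEFM, INA and LIN28B had 19.4 to 40.9 FPKM in every library, and PAX2 and LHX1 had 0.735 to 1.46 FPKM. Of the genes of differentiated kidney, UMOD was at 0, NPHS1 and SLC12A1 reached at most 0.0577 FPKM and AQP1 had 0.0434 to 0.232 FPKM, while the blood cell genes CD3E and PTPRC stood at 0 to 0.0134 FPKM. The summed FPKM of 5 markers of blood, stroma, endothelium and liver was 4.14 to 4.25 in DMSO, 3.46 to 3.69 in CEP, 3.24 to 4.24 in 4SU and 2.89 to 3.58 in CEP+4SU libraries, nearly all of it from COL1A1, a collagen gene at 2.89 to 4.22. CD3E was at 0 in every library, and the part of this list in the results was not tested. The libraries held from 16569114 to 24644734 counts in all. Levels between libraries are given as CPM, counts scaled to a common library size by TMM normalization. Levels between genes are given as FPKM, which also divides by gene length. In bulk RNA a lower level may come from fewer cells that express a gene or from less RNA per cell, which cannot be told apart.

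None of the 10 genes passed the test in any comparison, at a Benjamini-Hochberg adjusted p of 0.05 in edgeR's quasi-likelihood test over all tested genes. For CEP against DMSO 0 of 10 were called, against 0.0564% of all tested genes. The count was 0 of 10 against 0.00564% for 4SU, and 0 of 10 against 1.64% for CEP+4SU. With 6 libraries on each side, it was 0 of 10 against 0.276% for CEP averaged over 4SU and 0 of 10 against 0.558% for 4SU averaged over CEP. For their interaction it was 0 of 10 against 0%. With so few genes called in the whole table, a count of 0 among 10 does not set these genes apart. DESeq2 also called none, with backgrounds of 1.83%, 0.363%, 9.96%, 14.6%, 2.62% and 0% in the same order, but for 4SU against DMSO it gave an adjusted p to only 7 of the 10 and none to UCKL1, UPP1 and DHODH. At an unadjusted edgeR p under 0.05 there was 1 gene in all, CAD for CEP averaged over 4SU, where 24.3% of all tested genes lay. Each of the other 5 comparisons had 0 of 10, against 18.6% with CEP, 6.50% for 4SU, 21.4% for CEP+4SU, 12.6% for 4SU averaged over CEP and 2.63% for the interaction.

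SLC29A1, the equilibrative nucleoside transporter through which uridine and 4-thiouridine can enter, had CPM values that overlapped between DMSO and each treated group. Its CPM in replicates 1 to 3 was 115, 107 and 108 in the DMSO libraries, 119, 112 and 104 after CEP, 121, 107 and 117 after 4SU and 114, 89.6 and 113 after CEP+4SU. The lowest library was CEP+4SU replicate 2. The log2 fold change was -0.0087 ± 0.066 (SE) for 4SU averaged over CEP, with a 95% interval from -9.69% to 9.40% (edgeR, adjusted p = 0.974), and -0.05 ± 0.066 for CEP averaged over 4SU. For CEP+4SU against DMSO it was -0.06 ± 0.093, with 0.05 without CEP+4SU replicate 2 and -0.13 without CEP+4SU replicate 1.

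Among the kinases the CV over the 12 libraries, the SD as a share of the mean, ran from 3.96% for UCK2 to 14.7% for UCKL1. UCK2, the more active of the pair of uridine-cytidine kinases, had CPM of 167, 161 and 171 in the DMSO libraries, 162, 165 and 161 after CEP, 162, 172 and 165 after 4SU and 169, 147 and 167 after CEP+4SU. It was the most even of the 10 genes, and its log2 fold change for 4SU averaged over CEP was -0.0078 ± 0.051, with an interval from -7.64% to 7.11% (edgeR, adjusted p = 0.969). UCK1, the other uridine-cytidine kinase, had CPM of 78.7, 71.3 and 77.0 in the DMSO libraries, 76.4, 64.3 and 73.5 after CEP, 80.8, 64.9 and 65.6 after 4SU and 67.6, 66.9 and 66.0 after CEP+4SU. The CEP+4SU libraries all lay below DMSO, with a log2 fold change of -0.18 ± 0.094 (edgeR, adjusted p = 0.279), while the other groups overlapped it.

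UCKL1, a kinase-like relative of these enzymes, varied the most of the 10. Its CPM was 51.4, 45.9 and 40.1 in the DMSO libraries, 43.9, 46.7 and 35.9 after CEP, 51.7, 39.1 and 37.0 after 4SU and 38.3, 31.7 and 43.8 after CEP+4SU. The group values overlapped in every case, and the log2 fold change for CEP+4SU against DMSO, -0.27 ± 0.14, was the farthest from 0 of the 10 (edgeR, adjusted p = 0.272). Leaving out CEP+4SU replicate 2 gave -0.15, and leaving out CEP+4SU replicate 3 gave -0.40.

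CMPK1, the UMP and CMP kinase that follows, had CPM of 132, 117 and 137 in the DMSO libraries, 140, 147 and 159 after CEP, 127, 149 and 130 after 4SU and 127, 166 and 134 after CEP+4SU. The 3 CEP libraries all lay above DMSO, and the other groups overlapped it. Its log2 fold change was 0.21 ± 0.099 for CEP against DMSO (edgeR, adjusted p = 0.273), 0.14 ± 0.070 for CEP averaged over 4SU (adjusted p = 0.230) and 0.0015 ± 0.070 for 4SU averaged over CEP (adjusted p = 0.996). Without CEP+4SU replicate 2, where CMPK1 was highest, the value for CEP+4SU against DMSO went from 0.14 to 0.019 and that for CEP averaged over 4SU from 0.14 to 0.077. At the other end, the value for CEP+4SU against DMSO was 0.20 without CEP+4SU replicate 1. That for CEP averaged over 4SU was 0.16 without CEP replicate 1.

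**Figure D1:**
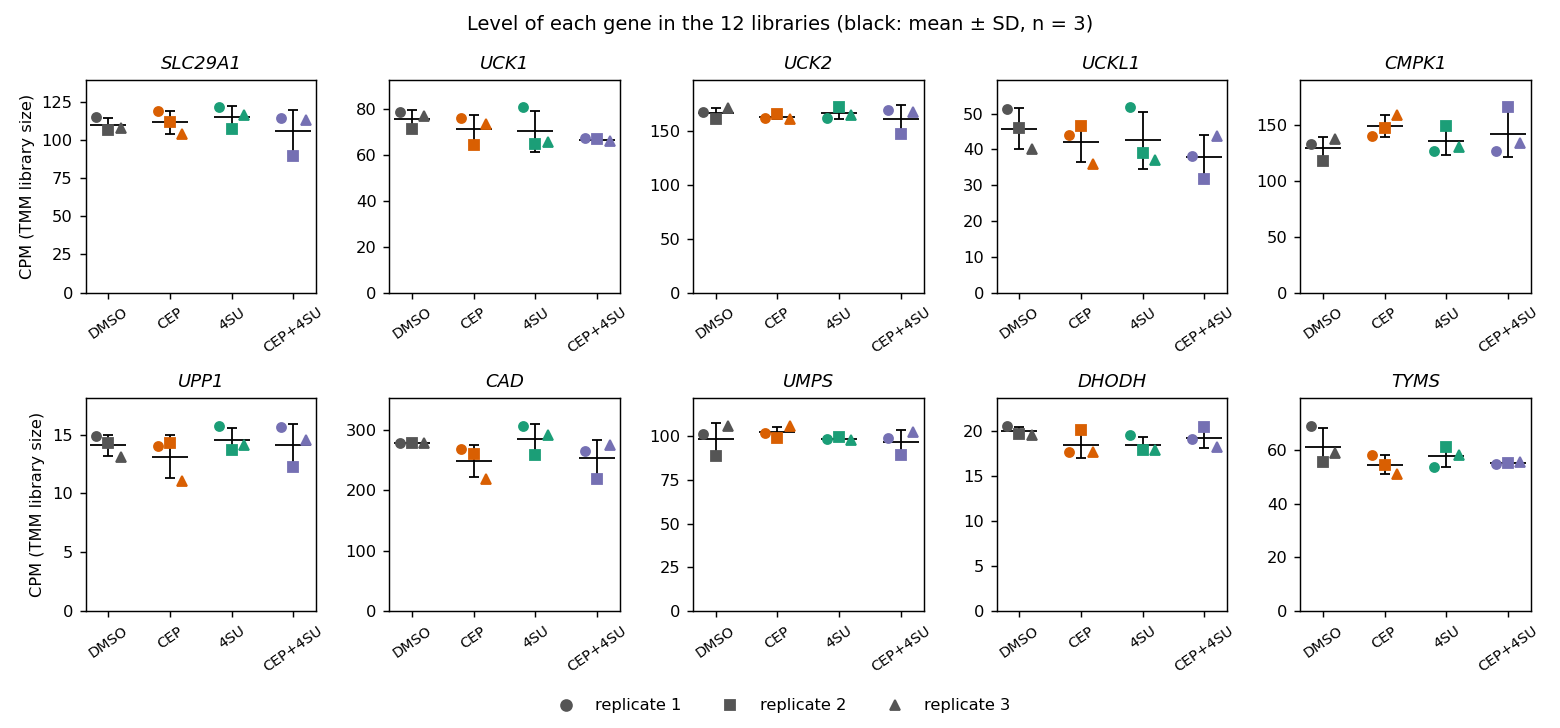
Level of each of the 10 genes in CPM (vertical axis, from 0) by treatment group, with a point for each library, shaped by replicate, and the mean ± SD of 3 in black. The groups of each gene sit side by side, and CEP+4SU replicate 2 is the lowest library for SLC29A1, UCK2 and UCKL1 and the highest for CMPK1.

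UPP1, the phosphorylase that splits uridine, was among the least abundant of the 10. Its CPM was 14.9, 14.3 and 13.1 in the DMSO libraries, 14.0, 14.3 and 11.1 after CEP, 15.7, 13.7 and 14.1 after 4SU and 15.6, 12.2 and 14.5 after CEP+4SU. It had 232 to 338 counts per library. For 4SU averaged over CEP its log2 fold change was 0.075 ± 0.097, with an interval from -8.49% to 21.3% (edgeR, adjusted p = 0.809), and it was 0.017 without CEP replicate 3 and 0.13 without CEP+4SU replicate 2.

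CAD, the large enzyme that starts pyrimidine synthesis, was the only gene under an unadjusted p of 0.05. Its CPM was 278.8, 279.3 and 278.6 in the DMSO libraries, 268.0, 259.9 and 218.3 after CEP, 306.7, 258.0 and 292.2 after 4SU and 264.7, 219.1 and 275.7 after CEP+4SU. All CEP and all CEP+4SU libraries lay below all DMSO libraries, while 4SU libraries lay on both sides of DMSO. The DMSO values had a CV of 0.122%, less than the 1.27% that counting alone gives at a mean of 6241 counts. For CEP averaged over 4SU the log2 fold change was -0.17 ± 0.066, with an interval from -19.3% to -2.15% (edgeR, unadjusted p = 0.0190, adjusted p = 0.131). Leaving out each of the 12 libraries in turn gave -0.22 to -0.12, with adjusted p from 0.0662 to 0.302. For 4SU averaged over CEP it was 0.030 ± 0.066 (adjusted p = 0.895).

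The other enzymes of UMP synthesis had small differences. DHODH, which oxidises dihydroorotate, had CPM of 20.5, 19.7 and 19.534 in the DMSO libraries, 17.6, 20.1 and 17.6 after CEP, 19.486, 17.8 and 17.9 after 4SU and 19.1, 20.4 and 18.2 after CEP+4SU. The 4SU libraries all lay below DMSO, the nearest values being 19.486 and 19.534, with a log2 fold change of -0.11 ± 0.11 (edgeR, adjusted p = 0.874). Its DMSO values had a CV of 2.66%, less than the 4.74% that counting alone gives at a mean of 445 counts. UMPS, which makes UMP from orotate, had CPM of 101, 88.8 and 106 in the DMSO libraries, 102, 99.3 and 106 after CEP, 98.6, 99.5 and 97.7 after 4SU and 98.9, 89.4 and 103 after CEP+4SU. No UMPS group was apart from DMSO, and its log2 fold changes in the averaged comparisons were 0.014 ± 0.058 for CEP and -0.041 ± 0.058 for 4SU.

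TYMS, thymidylate synthase, had CPM of 68.9, 55.523 and 58.8 in the DMSO libraries, 58.2, 54.4 and 51.0 after CEP, 53.6, 61.1 and 58.0 after 4SU and 54.7, 55.0 and 55.496 after CEP+4SU. The CEP+4SU libraries all lay below DMSO, the nearest values being 55.496 and 55.523, with a log2 fold change of -0.15 ± 0.093 (edgeR, adjusted p = 0.365). DMSO replicate 1 was the highest of the 12, and without it the value was -0.056, while without DMSO replicate 2 it was -0.21. TYMS shares 967 exonic bases with ENOSF1 on the opposite strand, and UCK2 shares 225 with TMCO1, at 2456 to 3800 counts per library. Weaker partners on the opposite strand are TYMSOS, with 183 bases of TYMS and at most 119 counts, AL358115.1, with 253 bases of UCK2 and at most 24, and UCKL1-AS1, with 156 bases of UCKL1 and at most 57. Whether reads were counted by strand is not given in the sources used here, so reads of these partners cannot be told apart. ENOSF1, at 419 to 663 counts, was not called either, with edgeR adjusted p from 0.526 to 1.0. No test of TMCO1 is given here.

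Groups without overlap were thus CMPK1 and CAD for CEP, DHODH for 4SU, and UCK1, CAD and TYMS for CEP+4SU, or 2, 1 and 3 of the 10 genes. Among all tested genes, 23.7%, 17.9% and 28.7% did not overlap in those comparisons, so these shares are near the background. Taken as sizes, the median absolute log2 fold change of the 10 was 0.11 with CEP, 0.066 with 4SU and 0.099 with both, beside 0.19, 0.12 and 0.19 for all tested genes. Counts of the 10 genes ran from 232 in a library for UPP1 to 6718 for CAD. The median CV of the 10 over the 12 libraries was 8.22%. It was 10.2% for the 10328 tested genes that averaged at least 10 CPM and 14.2% for all tested genes.

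**Figure D2:**
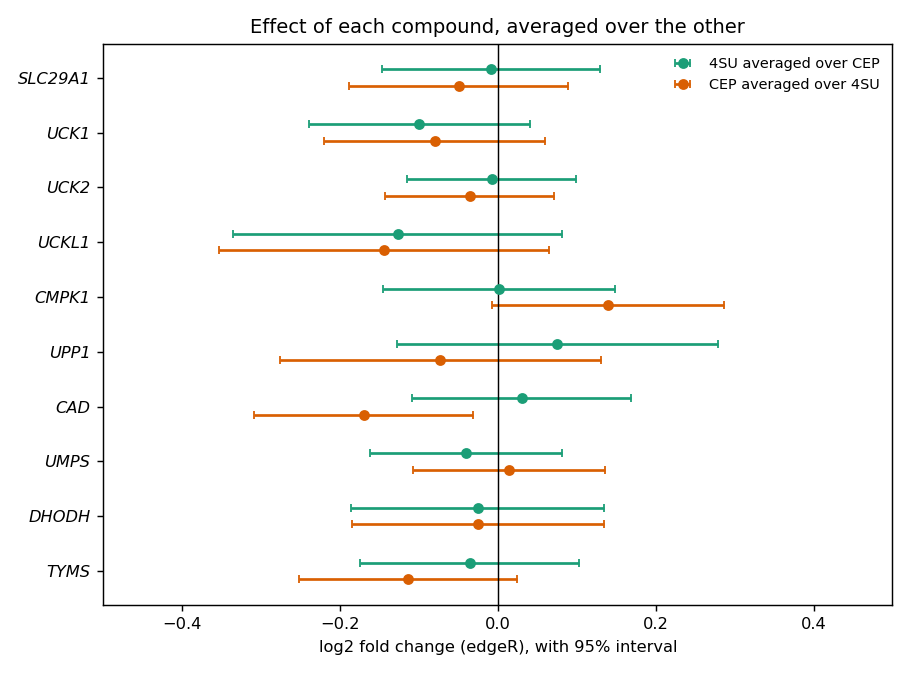
Log2 fold change of each gene with its 95% interval for CEP averaged over 4SU (orange) and 4SU averaged over CEP (green), from edgeR. The interval of CAD for CEP is the only one of these 20 that leaves out 0, and no adjusted p was at or under 0.05.

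In the averaged comparisons, which have the narrowest intervals, the 95% bounds over the 10 genes ran from -21.7% for UCKL1 to 22.0% for CMPK1 with CEP, and from -20.8% for UCKL1 to 21.3% for UPP1 with 4SU. These bounds are the precision that 6 libraries a side gave. Leaving out 1 library turned the sign of SLC29A1 and UMPS for CEP, and of SLC29A1, UCK2, CMPK1, CAD, DHODH and TYMS for 4SU, with all their values between -0.096 and 0.080 on the log2 scale. The interaction values lay between -0.15 for SLC29A1 and 0.18 for DHODH on the log2 scale, with intervals reaching from -27.6% for UCKL1 to 40.9% for DHODH.

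The values for CEP averaged over 4SU and for CEP+4SU against DMSO went with the GC content of the gene. Over the 10 genes the log2 fold change for CEP averaged over 4SU had a Pearson r of -0.85 with the GC share of the principal transcript, and that for CEP+4SU against DMSO one of -0.80, while for 4SU averaged over CEP r was -0.27 with GC and 0.32 with the share of U. These are descriptions over 10 genes measured in the same libraries. CMPK1 lay apart in GC share, at 37.8%, with UMPS next at 48.1%, and no r without CMPK1 is given. The trend of each library on GC content was then removed over all genes. The CEP value averaged over 4SU went from -0.17 to -0.037 for CAD, 0.14 to 0.052 for CMPK1 and -0.14 to 0.066 for UCKL1. It went from -0.036 to -0.020 for UCK2, -0.11 to -0.057 for TYMS and 0.014 to -0.0089 for UMPS. For UCK1 it turned from -0.080 to 0.076 and for SLC29A1 from -0.050 to 0.082. UPP1 turned from -0.073 to 0.083 and DHODH from -0.025 to 0.058. The CEP+4SU values ran from -0.27 for UCKL1 to 0.14 for CMPK1 before. After, they ran from -0.11 for TYMS to 0.16 for UPP1, with UCKL1 at -0.061. The values of 4SU averaged over CEP ran from -0.13 for UCKL1 to 0.074 for UPP1 after the trend was removed and from -0.13 to 0.075 before. What part GC content has in the CEP values was not tested. CEP+4SU replicate 2 and CEP replicate 2 stood out over all tested genes, with median absolute deviations from the mean of the libraries of 0.23 and 0.21 on the log2 scale, where the others had 0.10 to 0.16. They also had the fewest genes with a count, 22627 and 22230, where the others had 24376 to 25869. Without either library, 0 of the 10 genes were called by edgeR in each comparison that uses it.

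**Figure D3:**
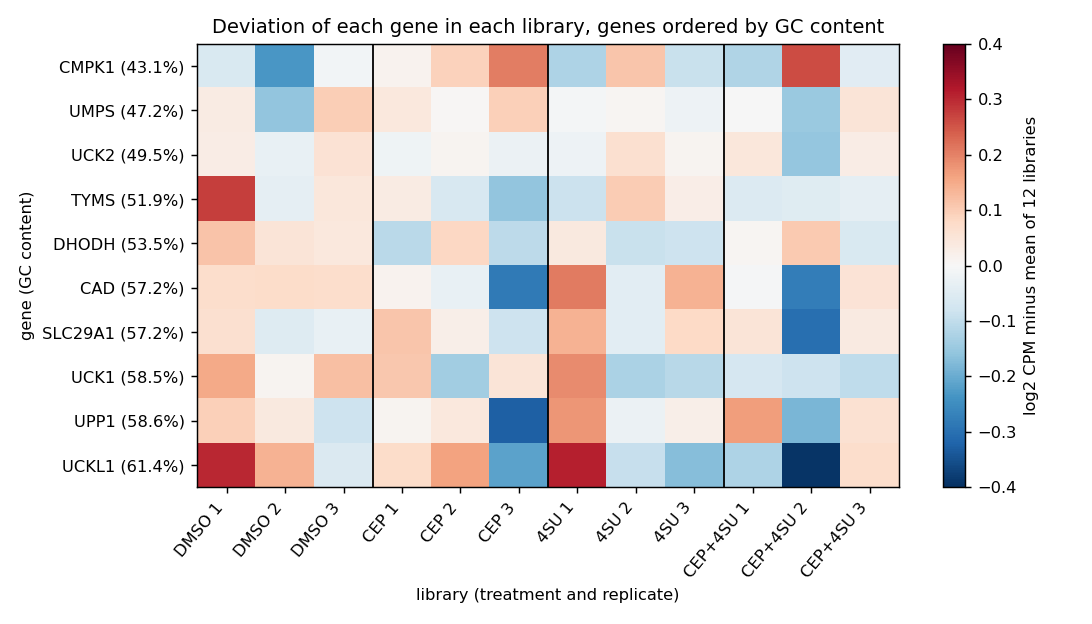
Deviation of log2 CPM of each gene (rows, ordered by mean GC content of its transcripts, from 43.1% for CMPK1 to 61.4% for UCKL1) from its mean over 12 libraries (columns), in colour from blue, below, to red, above. In CEP+4SU replicate 2, CMPK1 is above its mean by 0.26 and UCKL1 below it, at -0.39. Opposite signs at the ends of the list also occur in CEP replicate 3, 4SU replicates 1 and 2, CEP+4SU replicate 3 and DMSO replicates 1 and 2. In DMSO replicate 2 CMPK1 is at -0.23 and UCKL1 at 0.14.

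Per kilobase, the genes fell into 3 tiers. The mean FPKM over 12 libraries was 35.8 ± 3.62 (SD) for CMPK1, 31.4 ± 3.13 for CAD, 26.2 ± 2.18 for UCK1, 24.9 ± 1.93 for SLC29A1, 23.0 ± 0.929 for UCK2 and 22.9 ± 1.87 for TYMS. Each of these overlapped the next in range. UCKL1 with 13.1 ± 1.93 and UMPS with 13.0 ± 0.694 formed the next tier, and UPP1 with 3.03 ± 0.293 and DHODH with 2.72 ± 0.160 the lowest. TYMS and UCKL1 did not overlap in range, nor did UMPS and UPP1.

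This order rested on the length used. The deposited length equals the union of all annotated exons for all 10 genes, 7067 bases for UCK2, while the principal transcript of UCK2 has 1375 bases. With principal transcript lengths UCK2 went from the fifth place to the first, at 118 FPKM, followed by SLC29A1 at 47.2, CMPK1 at 47.0, CAD at 36.4, TYMS at 34.1 and UCK1 at 32.5. These values divide the reads of all exons of a gene by the principal length alone. Reads outside the principal transcript stay in them, so each is an upper bound for that transcript, and the ratios below share this limit. UCKL1 at 21.4 and UMPS at 14.6 kept their places in the order, and DHODH at 7.76 then stood before UPP1 at 7.17. The FPKM ratio of UCK2 to UCK1 had group means of 0.836 ± 0.0247 (SD) for DMSO, 0.873 ± 0.0916 for CEP, 0.907 ± 0.130 for 4SU and 0.918 ± 0.0701 for CEP+4SU, with no test, and over 12 libraries it was 3.66 with principal lengths. The ratio of CAD, UMPS and DHODH summed to UCK1 and UCK2 summed was 0.949 ± 0.0177, 0.923 ± 0.0725, 0.998 ± 0.0478 and 0.956 ± 0.0615 in the same groups, and 0.389 with principal lengths. In both ratios the libraries of every pair of groups overlapped, and which of UCK1 and UCK2 stands higher per kilobase turned with the length.

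**Figure D4:**
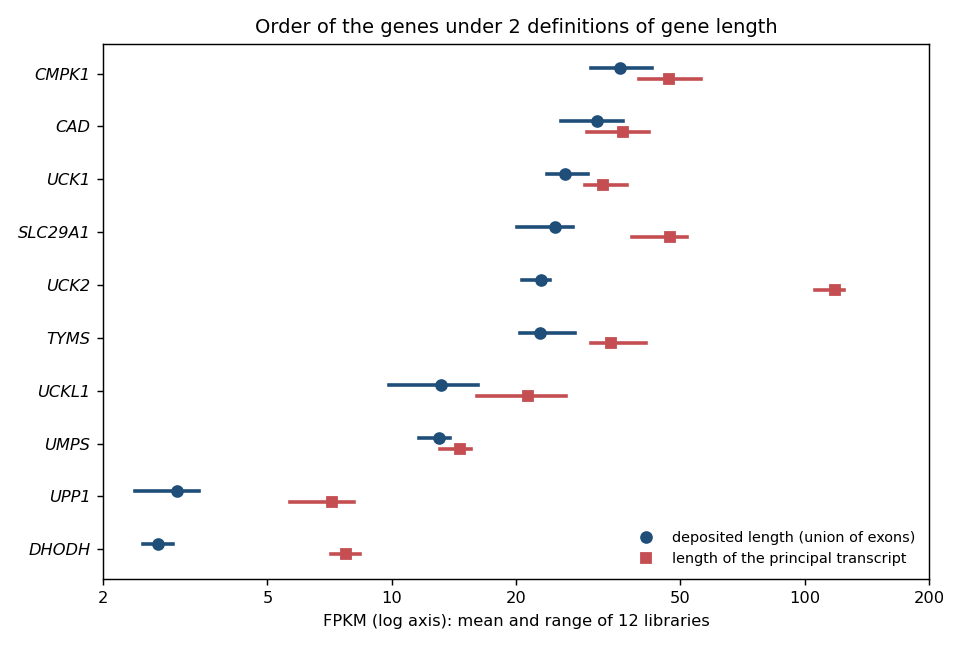
Mean FPKM (log axis) and range over 12 libraries of each gene, with the deposited length (blue circles) and with the length of the principal transcript (red squares). UCK2 moves from 23.0 to 118, and the lowest genes are UPP1 and DHODH with either length. The reads are those of all exons with either length, so the red squares are upper bounds for the principal transcript.

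Of 49 other genes of the pathway, 43 were tested. The concentrative transporters SLC28A1, SLC28A2 and SLC28A3, which take up nucleosides with sodium, had at most 5 counts in any library. The tested genes were 3 of uridine transport, 3 of nucleoside catabolism, 7 of pyrimidine nucleotide dephosphorylation, 11 of UMP to UTP and CTP, 14 of deoxypyrimidine and thymidylate synthesis and 5 of UDP-sugar synthesis. In CEP+4SU against DMSO 1 of the 43 was called, which was lower, against 0.993% of all tested genes called lower. In the other 5 comparisons edgeR called 0 of 43, against 0.0564% of all tested genes for CEP, 0.00564% for 4SU, 0.276% for CEP averaged over 4SU, 0.558% for 4SU averaged over CEP and 0% for the interaction. At an unadjusted p under 0.05 there were 7 of 43 for CEP (18.6% of all tested genes), 2 for 4SU (6.50%), 9 for CEP+4SU (21.4%), 14 for CEP averaged over 4SU (24.3%), 6 for 4SU averaged over CEP (12.6%) and 0 for the interaction (2.63%).

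The gene called was SLC29A4, a relative of SLC29A1 best known as a carrier of monoamines and adenosine. Its CPM was 31.5, 31.7 and 28.1 in the DMSO libraries, 28.1, 24.7 and 25.1 after CEP, 29.2, 25.8 and 21.1 after 4SU and 21.4, 14.3 and 23.5 after CEP+4SU. It fell by 0.62 on the log2 scale with CEP+4SU against DMSO, with an SE of 0.15 (edgeR, adjusted p = 0.0456). The call was lost without any one of the DMSO libraries, without CEP+4SU replicate 2 or 3, and with limma on FPKM or the GC trend removed.

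The genes with the highest FPKM in 5 of the lists were SLC29A2, the other main uridine carrier, at 10.4 FPKM over 12 libraries, the cytidine deaminase CDA at 3.39, NT5C3B at 71.9, PRPS1, which makes the ribose phosphate donor, at 110, and UAP1 at 33.1. Against DMSO their log2 fold changes lay between -0.23 for CDA with CEP+4SU and 0.057 for UAP1 with CEP, and none was called by edgeR.

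**Figure D5:**
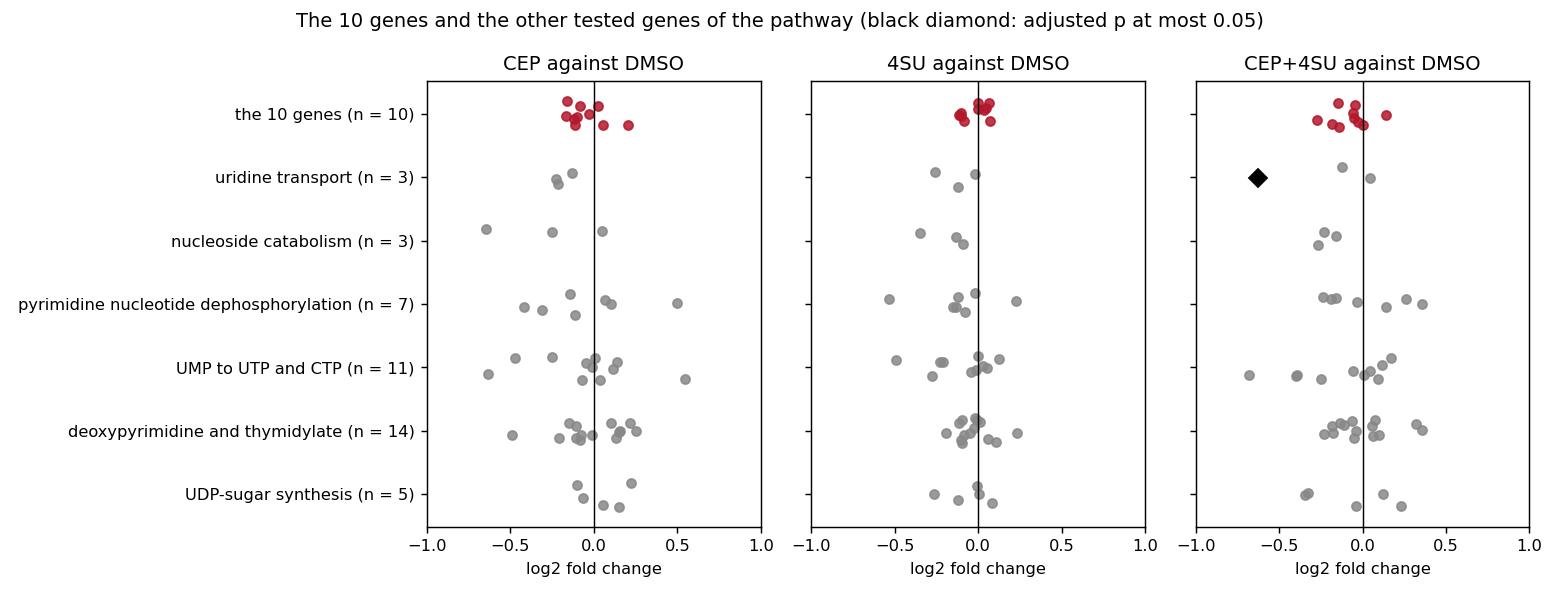
Log2 fold change against DMSO (horizontal axis) of the 10 genes (red) and of the tested genes of 6 lists of the pathway (grey), by treatment. CMPK2, with at most 37 counts in a library, lies outside the axis with 4SU, at -1.24, and with CEP+4SU, at 1.46, and was not called. SLC29A4 with CEP+4SU is the only gene past the threshold, shown as a black diamond, and the 10 genes lie between -0.27 and 0.21.

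The genes with the most similar pattern of log2 CPM over the 12 libraries, among 10327 others with a mean of at least 10 CPM, were HM13, PEMT and MAN2B1 for SLC29A1, with Pearson r of 0.94, 0.94 and 0.93. For UCK2 they were DFFB, KCTD5 and FBF1, with 0.88, 0.84 and 0.84. For CAD they were RPTOR, ANKS3 and NISCH, with 0.95 each, and for TYMS TRO, ITPKC and LARS2, with 0.87, 0.86 and 0.80. These points share libraries and their depth and composition, and the values are a description.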

How the data were processed

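RNA-Seq libraries of HEK293T cells were analysed in 4 groups of 3. After read cleaning, the authors aligned to GRCh38 using HISAT2 2.0.5 and made the deposited counts per gene with featureCounts 1.5.0-p3. The FPKM values deposited by the authors are these counts divided by gene length and by an adjusted library size. The submitters' processing notes also name DESeq2 and GATK 4.1.1.0. Group means of FPKM were not used here.

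The 10 genes, the pathway and marker lists and the tests were chosen with earlier results of these data known. Counts were filtered with filterByExpr (minimum count 10, minimum total 15), normalized with TMM and fitted over 4 groups in edgeR 4.0.16 (R 4.3.3) by quasi-likelihood, with Benjamini-Hochberg adjustment over 17729 genes. Named are all 10 genes, pathway genes past the threshold, the gene of highest mean FPKM in each list, and for SLC29A1, UCK2, CAD and TYMS the 3 genes with the highest correlation of log2 CPM. Of the pathway genes so named, 1 is left out of the text but remains in the counts. Alternatives were DESeq2 1.42.0, limma 3.58.1 on log2(FPKM + 1) and log2(FPKM + 0.1), upper-quartile or no scaling, other filters, robust dispersion, a replicate block, the 6 libraries of a comparison alone and each library left out. Removal of trends on GC content or gene length (natural spline, 5 degrees of freedom) and principal transcript lengths were added after seeing the data. The count fits were run on simulated data with changes larger than any seen in the 10 genes. That run does not show whether changes as small as theirs would be called. Libraries of one group differed beyond counting noise, with chi-square per degree of freedom from 4.04 to 17.9, so none was merged.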

Additional observations from a re-analysis of the deposited data

How the results depend on the processing

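Over 1230 refitted fold changes of the 10 genes, with 24 alternatives, none passed an adjusted p of 0.05, with 3 given no adjusted p by DESeq2. The smallest was 0.0573, for CAD with CEP averaged over 4SU and no low-count filter. The sign differed in 119 of them, for values of at most 0.14 on the log2 scale. The counts of pathway genes called moved more. For CEP+4SU against DMSO the 1 gene called became 3 with DESeq2, 4 with no low-count filter, 2 with the gene length trend removed, 2 with only the 6 libraries, and 0 with limma at either pseudocount or with the GC trend removed. For CEP averaged over 4SU the count of 0 became 3 with DESeq2 and 4 with no filter, for 4SU averaged over CEP it became 1, 2 and, with the GC trend removed, 5, and for CEP it became 1 with no filter. Leaving out each library gave 0 to 4 genes for CEP+4SU, with 4 without CEP+4SU replicate 1, 0 to 1 for CEP, 0 to 5 for CEP averaged over 4SU, with 5 without CEP replicate 1 and 3 without CEP+4SU replicate 1, and 0 to 1 for 4SU averaged over CEP, with 1 without CEP+4SU replicate 2. DESeq2 gave an adjusted p to 36 pathway genes for CEP+4SU, 34 for CEP averaged over 4SU and 40 for 4SU averaged over CEP. It called 9.96%, 14.6% and 2.62% of all genes it tested in those comparisons. For the other settings of this paragraph no share over all tested genes is given, so the counts are not read as results about the pathway. The cause of the moves was not tested.

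Deviations of samples of the same replicate number had correlations of -0.047 to 0.14 over 18 pairs, with a median of 0.011 and 1 of them over 0.1. The 36 pairs of other numbers had -0.16 to 0.055, and 7 of 12 libraries correlated best with their own number. Whether the numbers mark pairs was not tested. With the replicate block, 0 of the 10 genes were called in each comparison, and of the pathway genes 2 of 43 for CEP (4.4% of all tested genes in the same fit), 5 for CEP+4SU (9.4%), 7 for CEP averaged over 4SU (12.8%) and 2 for 4SU averaged over CEP (1.9%). Without the block the shares of all tested genes were 0.0564%, 1.64%, 0.276% and 0.558% in the same order, so the block raised the calls over the whole table.

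With the principal transcript length the mean FPKM was 47.2 for SLC29A1, 32.5 for UCK1, 118 for UCK2, 21.4 for UCKL1, 47.0 for CMPK1, 7.17 for UPP1, 36.4 for CAD, 14.6 for UMPS, 7.76 for DHODH and 34.1 for TYMS, the UCK2 to UCK1 ratio was 3.66 and that of CAD, UMPS and DHODH to the kinases 0.389. The reads of all exons were kept with the principal length, so these levels are upper bounds for that transcript. CPM per kilobase and the median over libraries moved none of the levels or ratios by more than the spread. UPP1 and DHODH, with 232 to 471 counts per library, have the largest counting error of the 10, 5.64% and 4.74% in DMSO.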
